A study of Arabidopsis thaliana with 12 samples.

Results

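The genes described here are 10 Arabidopsis thaliana genes that set the level of the hormone abscisic acid or repress its signal, chosen by gene identifier from the 27655 genes in the deposited tables. They are NCED3, the hydroxylase genes CYP707A1, CYP707A2 and CYP707A3, and the phosphatase genes ABI1, ABI2, HAB1, HAI1, HAI2 and HAI3, and all 10 were listed in the tables of both lines. Whole seedlings were sequenced from 2 lines, named flu1-1 ex1 and flu1-5 ex1, that carry different alleles of flu. FLU is a chloroplast protein that holds back chlorophyll synthesis in darkness, and its loss lets a chlorophyll precursor build up that releases singlet oxygen in light. Both lines also carry ex1, a lesion in EXECUTER1, a chloroplast protein known for its part in singlet oxygen responses. In all groups the seeds were stratified for 2 days at 4 °C and the seedlings grown at 22 °C. Seedlings aged 6 days and raised in continuous light were sampled at the end of 4 h in darkness (dark) or after a further 1 h of light (light), with 3 libraries in each of the 4 groups and about 100 seedlings in each replicate, per the file headers. No group was free of the flu or ex1 lesions, and none stayed dark for the additional 1 h, so singlet oxygen, light itself and elapsed time cannot be told apart in a change between dark and light.

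Abscisic acid is a stress hormone best known for closing stomata and holding back germination. It is cut from carotenoid precursors by 9-cis-epoxycarotenoid dioxygenases such as NCED3, and it is inactivated by 8'-hydroxylases of the CYP707A family. When the hormone binds its PYR/PYL receptors, the complex inhibits clade A protein phosphatases 2C (PP2Cs), which frees SnRK2 kinases to phosphorylate transcription factors. Several of these phosphatase genes are themselves induced by the hormone, which gives the pathway a negative feedback.

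Levels are in TPM, transcript counts scaled to a fixed total, a relative abundance corrected for transcript length, so levels of different genes can be compared. TPM keeps no read number, and with the depth unknown, the number of libraries (3 in each group) sets the precision. Differences were tested on the log2(TPM + 1) scale with limma over all genes whose mean reached 1 TPM. A gene is called where the Benjamini-Hochberg adjusted p over all genes tested was under 0.05. In whole seedlings, fewer cells of a type and less RNA per cell cannot be told apart. FLU (AT3G14110), the check of the lines, averaged 190.3 ± 6.33 TPM (dark) and 191 ± 1.65 TPM (light) for flu1-1 ex1, and 14.2 ± 1.21 and 15.5 ± 1.46 TPM for flu1-5 ex1 (SD, n = 3). The shoot markers RBCS1A, RCA and LHCB3 together stood at 18700 to 21380 TPM in every library, most of it RBCS1A (15400 to 17860 TPM). The transcript listed for RCA differs between the lines, so this sum is not strictly comparable across them. LHCB3 stood at 1794 to 1837 TPM in dark and 909 to 925 TPM in light in flu1-1 ex1. In flu1-5 ex1 it stood at 767 to 844 and 589 to 598 TPM. With light, 2 of the 3 were called lower in flu1-1 ex1, and 2 lower and 1 higher in flu1-5 ex1, beside 72.6% and 67.8% of all genes tested called. Of the root markers, PYK10 stood at 695 to 996 TPM, whereas the root hair genes EXPA7, COBL9 and PRP3 each stayed at or under 1.34 TPM.

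Most of these genes were higher in light than in dark in both lines. In flu1-1 ex1, 6 members rose, 1 fell and 1 of the 8 tested was not called, where 72.6% of all genes tested were called (44% higher and 28.6% lower). In flu1-5 ex1, 6 rose, none fell and 2 were not called, against a background of 67.8% called (38.4% higher and 29.3% lower). The genes that rose were the same 6 in both lines, namely NCED3, CYP707A2, ABI1, ABI2, HAB1 and HAI1. The median light change of the 8 tested members was 1.31 in flu1-1 ex1 and 1.51 in flu1-5 ex1 on the log2 scale, beside medians of 0.12 and 0.05 over all genes tested. With quantile normalization these all-gene medians became -0.02 and -0.07, and the split of all called genes turned from 7942 higher and 5155 lower to 6386 and 6751 in flu1-1 ex1, and from 6973 and 5324 to 5649 and 7016 in flu1-5 ex1; the 6 genes rose under that scaling too. HAI2 and HAI3 lay under the level filter in every comparison, and NCED3, CYP707A2 and HAI1 had dark means under 1 TPM, so they entered the tests only through their light levels and their share among the tested members is no support. CYP707A3 passed in flu1-1 ex1 through its dark level, with a light mean of 0.930 TPM.

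**Figure D1:**
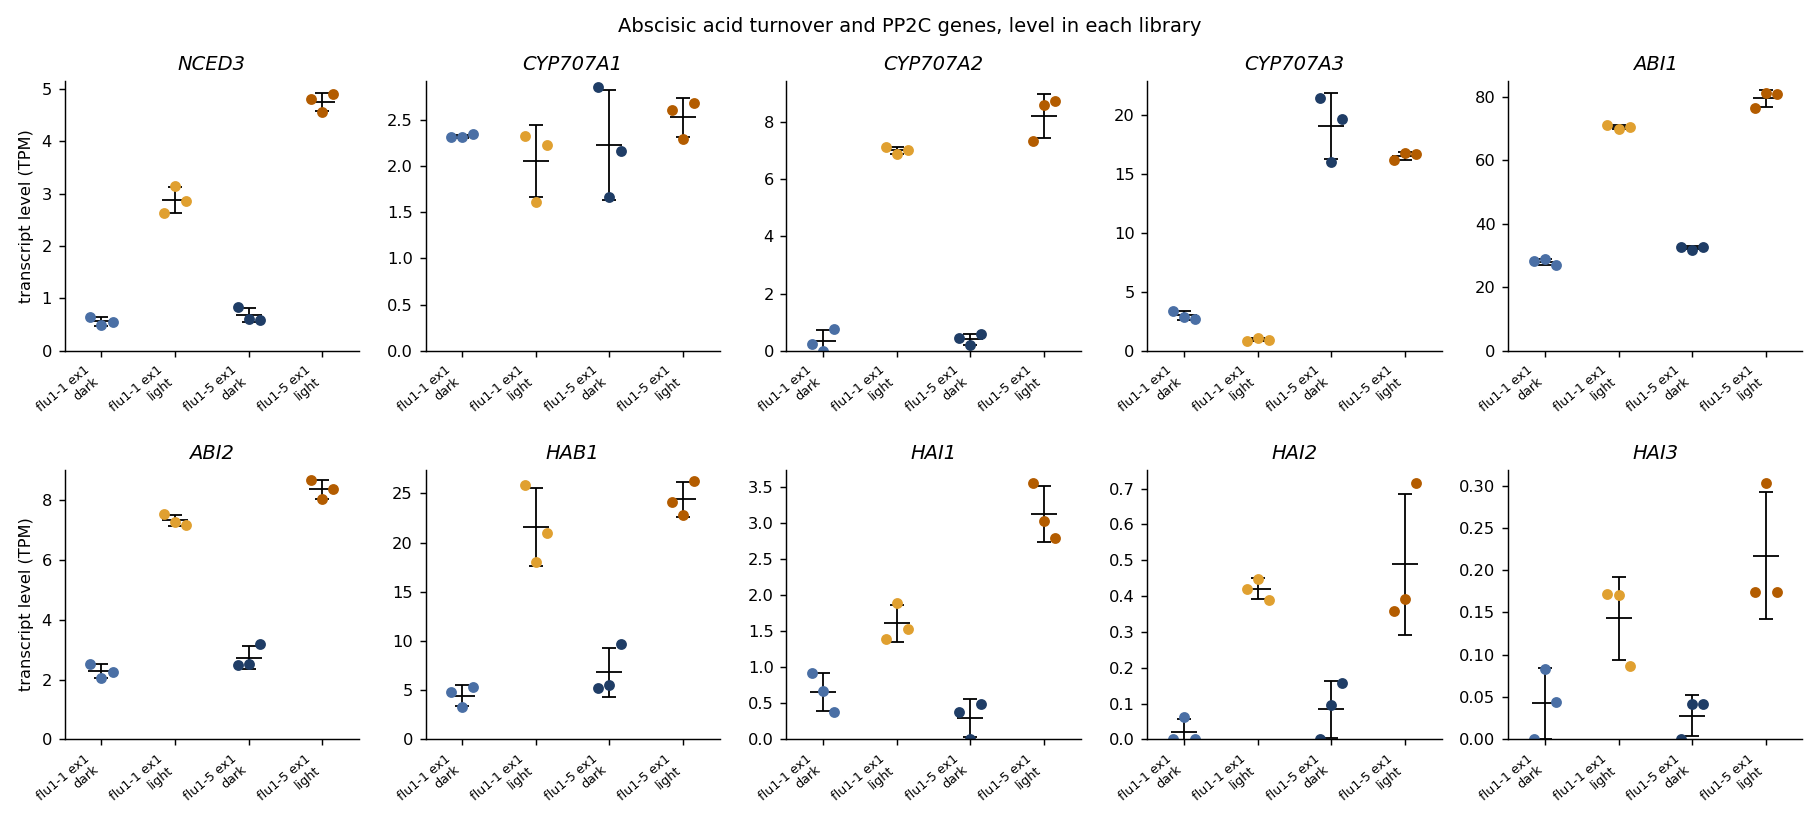
Level of each of the 10 genes in every library, in TPM on linear axes that start at 0 and differ between panels; points are libraries and bars are the mean ± SD of 3 libraries. NCED3, CYP707A2, ABI1, ABI2, HAB1 and HAI1 stand higher in every light library than in any dark library of the same line, CYP707A1 overlaps in all groups, and CYP707A3 separates the lines.

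NCED3 (AT3G14440), the dioxygenase whose cleavage step is regarded as rate-limiting for stress-induced abscisic acid synthesis, was scarce in darkness. Its level was 0.648, 0.483 and 0.549 TPM in the dark libraries of flu1-1 ex1 and 2.64, 3.15 and 2.86 TPM in the light libraries. In the other line, flu1-5 ex1, it was 0.828, 0.613 and 0.589 TPM in the dark group and 4.81, 4.55 and 4.9 TPM in the light group. The dark libraries of the lines overlapped, whereas every light library of flu1-5 ex1 was above every light library of flu1-1 ex1. The mean rose 5.14-fold in flu1-1 ex1 (log2 change 1.31, SE 0.12, limma adjusted p = 1e-05) and 7.02-fold in flu1-5 ex1 (1.78, SE 0.11, adjusted p = 8.08e-07). The difference between these responses was 0.47 (SE 0.14, adjusted p = 0.0239). That call was lost without any 1 of 5 libraries, namely dark replicate 1 (adjusted p = 0.0545) or light replicate 1 (0.0593) of flu1-1 ex1 and dark replicate 2 (0.0510), dark replicate 3 (0.0528) or light replicate 3 (0.0543) of flu1-5 ex1. It was also lost with a pseudocount of 0.1 TPM (adjusted p = 0.172).

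The CYP707A hydroxylases, which start the breakdown of abscisic acid, behaved in 3 different ways. CYP707A2 (AT2G29090), the member known for removing the hormone in imbibed seeds, was almost absent in darkness and rose in light. Its dark level was 0.237, 0 and 0.747 TPM in flu1-1 ex1 and 0.436, 0.196 and 0.577 TPM in flu1-5 ex1. Its light level was 7.12, 6.89 and 7.01 TPM in flu1-1 ex1 and 7.33, 8.59 and 8.72 TPM in flu1-5 ex1. The highest dark library, at 0.747 TPM, was far below the lowest light library, at 6.89 TPM. The change was 2.63 in flu1-1 ex1 (SE 0.19, limma adjusted p = 2.39e-06), with no fold given because a dark library is listed at 0. In flu1-5 ex1 it was 2.72 (SE 0.13, adjusted p = 1.92e-07), a 20.4-fold rise of the mean. The responses of the lines differed by 0.09 (95% interval -0.43 to 0.62, adjusted p = 0.816).

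CYP707A3 (AT5G45340), a hydroxylase known for the breakdown of the hormone after rehydration and in humid air, was the member in which the lines stood farthest apart. In flu1-1 ex1 its level was 3.39, 2.86 and 2.72 TPM in the dark group and 0.817, 1.1 and 0.871 TPM in the light group. In flu1-5 ex1 it was 21.5, 16 and 19.6 TPM in the dark group and 16.2, 16.7 and 16.7 TPM in the light group. All 6 libraries of flu1-5 ex1 lay above all 6 of flu1-1 ex1. The mean was 6.36-fold higher in flu1-5 ex1 in dark (log2 difference 2.32, SE 0.10, limma adjusted p = 5.23e-09) and 17.8-fold higher in light (3.19, SE 0.10, adjusted p = 4.5e-11). In flu1-1 ex1 its mean was 3.21-fold lower in light than in dark (log2 change -1.05, SE 0.12, adjusted p = 5.86e-05), and the dark and light libraries did not overlap. In flu1-5 ex1 the change was -0.18 (SE 0.10, adjusted p = 0.121) and the libraries overlapped. Without dark replicate 2 of flu1-5 ex1, its lowest dark library, the change there was -0.30 and passed (adjusted p = 0.00414). The change in that line also passed with quantile normalization (-0.31, adjusted p = 0.0162) and by the p-value in the authors' deposited table (0.0248, adjusted here to 0.0330). The difference between the light responses was 0.86 (SE 0.15, adjusted p = 0.000713); it was called in all 12 fits that left out a library, and with a pseudocount of 5 TPM it missed the threshold (adjusted p = 0.0512).

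CYP707A1 (AT4G19230), known in seed maturation and guard cells, showed no called change. Its 12 libraries ran from 1.61 to 2.86 TPM and overlapped between all groups. The light change was -0.13 in flu1-1 ex1 (95% interval -0.41 to 0.15, limma adjusted p = 0.361) and 0.14 in flu1-5 ex1 (95% interval -0.19 to 0.48, adjusted p = 0.407). With quantile normalization the change in flu1-1 ex1 was -0.33 and passed (adjusted p = 0.0302), and it passed by the p-value in the authors' deposited table (adjusted p = 0.0252). Among these 3 genes the order by level changed with the condition. In darkness the order was CYP707A3, CYP707A1, CYP707A2 in both lines, with means of 2.99, 2.33 and 0.328 TPM in flu1-1 ex1 and 19.0, 2.23 and 0.403 TPM in flu1-5 ex1. In light it was CYP707A2, CYP707A1, CYP707A3 in flu1-1 ex1 (7.01, 2.05 and 0.930 TPM) and CYP707A3, CYP707A2, CYP707A1 in flu1-5 ex1 (16.5, 8.22 and 2.53 TPM). Neighbours in these orders of 3 did not overlap between libraries in any of the 4 groups. CYP707A4 (AT3G19270), the remaining family member and not among the 10 genes, lay under the level filter and was not tested. Its mean was 0.148 TPM in dark and 0.794 TPM in light for flu1-1 ex1, and 0.144 and 0.764 TPM for flu1-5 ex1. Dark and light did not overlap in either line. Its libraries overlapped those of CYP707A3 in the light group of flu1-1 ex1 (0.591 to 0.994 TPM against 0.817 to 1.1) and those of CYP707A2 in the dark group of that line.

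The upstream sequences of the family are shown because CYP707A1 and CYP707A3, which differed in level and response, share a stretch that CYP707A2 does not hold. Each is the 250 bases before the start of the deposited transcript, 5' to 3' on the gene's strand, from RefSeq TAIR10.1, with each ACGTG on either strand in capitals. The core of the abscisic acid response element is ACGTG, and the G-box, which contains it, is CACGTG.
CYP707A1: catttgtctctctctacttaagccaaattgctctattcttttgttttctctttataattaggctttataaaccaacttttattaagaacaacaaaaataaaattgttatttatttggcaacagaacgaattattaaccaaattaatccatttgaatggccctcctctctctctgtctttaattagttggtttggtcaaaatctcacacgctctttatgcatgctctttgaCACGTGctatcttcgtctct
CYP707A2: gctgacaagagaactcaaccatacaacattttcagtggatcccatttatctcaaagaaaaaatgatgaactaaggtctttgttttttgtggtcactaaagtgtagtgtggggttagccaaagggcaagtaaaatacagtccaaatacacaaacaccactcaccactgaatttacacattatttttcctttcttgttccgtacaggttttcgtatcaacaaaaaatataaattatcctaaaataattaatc
CYP707A3: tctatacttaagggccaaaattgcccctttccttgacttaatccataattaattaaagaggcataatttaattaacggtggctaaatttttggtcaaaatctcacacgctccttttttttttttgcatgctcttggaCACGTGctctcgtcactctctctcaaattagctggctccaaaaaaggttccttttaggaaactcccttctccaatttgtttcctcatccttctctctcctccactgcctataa
They lie at chr4:10521009-10521258 (plus strand), chr2:12499724-12499973 (minus strand) and chr5:18371022-18371271 (minus strand). CYP707A1 and CYP707A3 hold an identical run of 23 bases, tttggtcaaaatctcacacgctc, and, between it and the start, a G-box. The middle bases of its ACGTG cores, 1 on each strand, lie 18 and 17 bases before the start in CYP707A1 and 111 and 110 bases before it in CYP707A3. The longest run that CYP707A2 shares with either is 9 bases. Over 27443 such windows of the genome, 6.62% hold CACGTG on either strand.

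The 4 phosphatase members that could be tested, ABI1, ABI2, HAB1 and HAI1, rose in both lines. ABI1 (AT4G26080), the most abundant member, was at 28.2, 28.8 and 27.1 TPM in the dark group and 71.3, 70.0 and 70.7 TPM in the light group in flu1-1 ex1. The flu1-5 ex1 libraries had 32.7, 31.9 and 32.7 TPM in the dark group and 76.4, 81.3 and 80.9 TPM in the light group. All light libraries lay above all dark libraries. The rise was 2.52-fold in flu1-1 ex1 (log2 change 1.31, SE 0.04, limma adjusted p = 6.05e-09) and 2.45-fold in flu1-5 ex1 (1.27, SE 0.04, adjusted p = 1.11e-08). Within each condition the libraries of flu1-5 ex1 also stood above those of flu1-1 ex1, by 0.20 in dark (SE 0.04, adjusted p = 0.00114) and 0.17 in light (SE 0.04, adjusted p = 0.00213). The light responses differed by -0.04 (95% interval -0.15 to 0.07, adjusted p = 0.627).

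ABI2 (AT5G57050), a close relative of ABI1 that acts beside it, was at 2.52, 2.06 and 2.25 TPM in the dark group and 7.52, 7.28 and 7.17 TPM in the light group in flu1-1 ex1. The flu1-5 ex1 libraries had 2.49, 2.53 and 3.18 TPM in the dark group and 8.68, 8.05 and 8.38 TPM in the light group. Dark and light did not overlap in either line, and the rise was 3.22-fold in flu1-1 ex1 (log2 change 1.35, SE 0.09, limma adjusted p = 1.48e-06) and 3.06-fold in flu1-5 ex1 (1.33, SE 0.10, adjusted p = 3.16e-06). HAB1 (AT1G72770), a phosphatase that binds SnRK2.6, was at 4.8, 3.29 and 5.28 TPM in the dark group and 25.8, 18 and 21 TPM in the light group in flu1-1 ex1. In flu1-5 ex1 it was at 5.25, 5.54 and 9.7 TPM in the dark group, where replicate 3 was the highest, and 24.1, 22.8 and 26.3 TPM in light. Its rise was the largest among the phosphatases tested in flu1-1 ex1, 4.85-fold (log2 change 2.06, SE 0.17, adjusted p = 1.29e-05), and it was 3.57-fold in flu1-5 ex1 (1.74, SE 0.20, adjusted p = 0.000163). The responses of the lines differed by -0.02 for ABI2 (95% interval -0.29 to 0.26) and -0.32 for HAB1 (95% interval -0.97 to 0.33), and neither was called.

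HAI1 (AT5G59220) belongs to the HAI group, named for strong induction by abscisic acid. It was at 0.916, 0.673 and 0.386 TPM in the dark libraries of flu1-1 ex1 and 1.39, 1.9 and 1.54 TPM in light. The flu1-5 ex1 libraries had 0.387, 0 and 0.494 TPM in the dark group and 3.56, 3.03 and 2.8 TPM in the light group. Dark and light libraries did not overlap in either line, and all light libraries of flu1-5 ex1 lay above those of flu1-1 ex1. The light change was 0.66 in flu1-1 ex1 (SE 0.16, limma adjusted p = 0.00476), a 2.45-fold rise of the mean, and 1.69 in flu1-5 ex1 (SE 0.17, adjusted p = 2.63e-05). The difference between these responses was 1.03 (SE 0.24, adjusted p = 0.00530) and was called in all 12 fits that left out a library. With a pseudocount of 0.1 TPM it missed the threshold (adjusted p = 0.0511), and by the p-value in the authors' deposited table the rise in flu1-1 ex1 did not pass (adjusted p = 0.215). Without light replicate 2 of flu1-1 ex1 the gene fell under the level filter in that line.

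HAI2 (AT1G07430) and HAI3 (AT2G29380) were close to the bottom of the scale. HAI2 was at 0, 0.0629 and 0 TPM in the dark group and 0.421, 0.449 and 0.39 TPM in the light group in flu1-1 ex1, and at 0, 0.0951 and 0.158 and 0.359, 0.391 and 0.716 TPM in flu1-5 ex1. HAI3 was at 0, 0.0836 and 0.0441 TPM in the dark group and 0.172, 0.171 and 0.0868 TPM in the light group in flu1-1 ex1, and at 0, 0.0422 and 0.0422 and 0.174, 0.304 and 0.174 TPM in flu1-5 ex1. Every light library of a line was above every dark library of that line for both genes. With no filter on low values, HAI2 was called in flu1-1 ex1 (log2 change 0.48, SE 0.06, limma adjusted p = 0.000228) and in flu1-5 ex1 (0.45, SE 0.11, adjusted p = 0.00894). HAI3 was then called in flu1-5 ex1 (0.24, SE 0.06, adjusted p = 0.0143) and not in flu1-1 ex1 (0.13, SE 0.06, adjusted p = 0.0948), and the difference between the lines was 0.11 (adjusted p = 0.392).

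The upstream windows of HAB1, HAI2 and HAI3 are shown because they are the phosphatase members that hold ACGTG, again in capitals on either strand.
HAB1: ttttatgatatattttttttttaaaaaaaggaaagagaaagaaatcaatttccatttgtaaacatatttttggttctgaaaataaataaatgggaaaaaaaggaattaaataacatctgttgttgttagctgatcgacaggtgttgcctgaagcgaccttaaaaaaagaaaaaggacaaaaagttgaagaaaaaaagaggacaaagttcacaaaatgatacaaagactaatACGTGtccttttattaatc
HAI2: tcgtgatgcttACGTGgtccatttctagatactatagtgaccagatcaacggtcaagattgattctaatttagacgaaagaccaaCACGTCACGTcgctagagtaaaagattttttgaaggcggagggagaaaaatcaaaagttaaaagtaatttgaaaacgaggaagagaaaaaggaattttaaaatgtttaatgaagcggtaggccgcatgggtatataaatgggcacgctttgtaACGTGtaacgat
HAI3: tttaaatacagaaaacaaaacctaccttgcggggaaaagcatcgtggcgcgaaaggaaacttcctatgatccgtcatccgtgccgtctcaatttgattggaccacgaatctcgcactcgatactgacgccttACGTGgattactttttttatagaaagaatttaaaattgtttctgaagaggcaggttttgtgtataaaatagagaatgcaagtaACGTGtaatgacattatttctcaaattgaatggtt
They lie at chr1:27389698-27389947 (plus strand), chr1:2282829-2283078 (minus strand) and chr2:12608425-12608674 (plus strand) of RefSeq TAIR10.1. HAI2 holds 4 such cores that do not overlap each other and HAI3 holds 2, and the longest run the pair shares, gtaacgtgtaa, has 11 bases and contains the core. In all, 5 of the 10 windows hold this response element core on either strand, where 23.3% of the 27443 windows do, and these counts include the 2 windows with a G-box. TTGAC, the W-box core, is in 6 of 10 windows and in 44.8% of all windows. GAANNTTC, the heat shock element core, is in 1 and in 9.63%. CCGAC, the core of the dehydration-responsive element, is in none and in 12.3%. These matches are letters in a window and were not tested as binding sites.

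**Figure D2:**
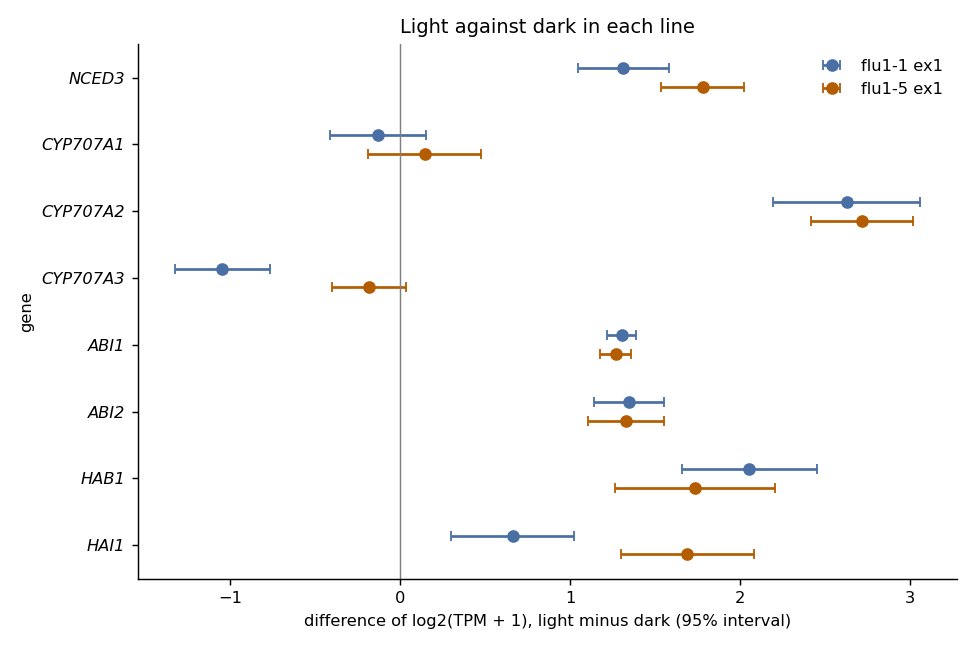
Light change of the 8 tested members in each line, as the difference of log2(TPM + 1), light minus dark, with 95% intervals from the limma fit of 6 libraries. NCED3, CYP707A2, ABI1, ABI2, HAB1 and HAI1 lie to the right of 0 in both lines, CYP707A3 lies at -1.05 in flu1-1 ex1 and -0.18 in flu1-5 ex1, and both intervals of CYP707A1 include 0.

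By level the phosphatase members kept the order ABI1, HAB1, ABI2, HAI1 in all 4 groups, with HAI2 and HAI3 below them. Neighbours did not overlap between libraries except HAI3 and HAI2 in the dark libraries of flu1-1 ex1, and HAI1 with HAI2 and HAI2 with HAI3 in the dark libraries of flu1-5 ex1. ABI1 alone made up 49.1% ± 2.197 of the summed TPM of the 9 clade A phosphatases in dark and 50.7% ± 1.17 in light in flu1-1 ex1, and 50.1% ± 1.77 and 49.1% ± 0.775 in flu1-5 ex1 (SD, n = 3). The share of HAB1 was 7.80% ± 1.72 in dark and 15.5% ± 2.50 in light in flu1-1 ex1, and 10.5% ± 3.40 and 15.04% ± 1.02 in flu1-5 ex1. The other clade A genes were PP2CA, HAB2 and AHG1. PP2CA (AT3G11410) rose by 0.60 in flu1-1 ex1 (SE 0.06, limma adjusted p = 3e-05) and 1.09 in flu1-5 ex1 (SE 0.07, adjusted p = 8.36e-07). HAB2 (AT1G17550) rose by 0.91 (SE 0.09, adjusted p = 2.35e-05) and 0.84 (SE 0.10, adjusted p = 0.000103). AHG1 (AT5G51760), known mainly from seeds, was listed at 0 to 0.170 TPM in all libraries and was not tested.

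Between the lines, 2 members were called in dark, CYP707A3 and ABI1, where 20.4% of all genes tested were called (14.7% higher and 5.68% lower in flu1-5 ex1). With quantile normalization the split of all genes called in dark went from 2618 higher and 1012 lower to 1832 and 1483, and the same number of members, 2, was called. In light 4 were called, where the background was 39.1% (18.1% higher and 21% lower). All of these were higher in flu1-5 ex1. Beside CYP707A3 and ABI1, the members called in light were NCED3, by 0.57 (SE 0.10, limma adjusted p = 0.000483), and HAI1, by 0.66 (SE 0.17, adjusted p = 0.00651); with a pseudocount of 0.1 TPM the difference of HAI1 did not pass (adjusted p = 0.205). The light libraries of CYP707A2 and of ABI2 also did not overlap between lines, and their differences of 0.20 (adjusted p = 0.393) and 0.17 (adjusted p = 0.153) were not called. HAI3, untested, did not overlap between lines in light either. The difference of the light responses, flu1-5 ex1 minus flu1-1 ex1, was called for 3 members, CYP707A3, HAI1 and NCED3, all with a higher value in flu1-5 ex1, where 29.6% of all genes tested were called (11.3% higher and 18.3% lower). These comparisons share libraries, so they are not independent of each other.

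**Figure D3:**
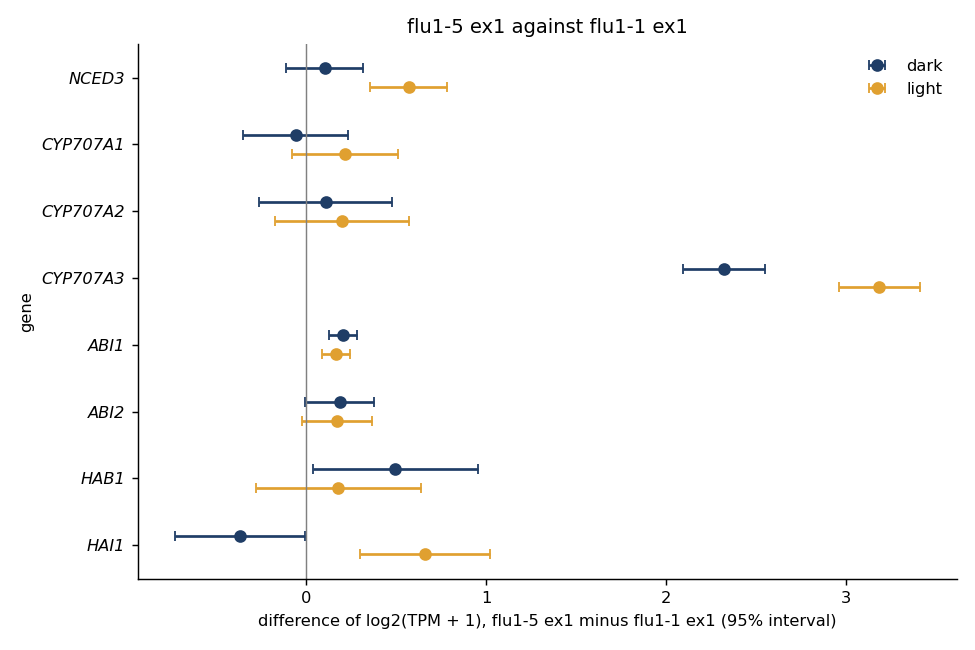
Difference between the lines for the 8 tested members, flu1-5 ex1 minus flu1-1 ex1 on the log2(TPM + 1) scale, in dark and in light, with 95% intervals from the limma fit of 12 libraries. CYP707A3 stands apart at 2.32 in dark and 3.19 in light, while NCED3 and HAI1 are called in light but not in dark.

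Among 72 other genes of the pathway, 55 were tested in each line, though not the same 55 in both. In flu1-1 ex1, 24 rose, 17 fell and 14 were not called, with a median change of 0.12, near the background of 72.6% called and the median of 0.12 over all genes. In flu1-5 ex1, 25 rose, 19 fell and 11 were not called, with a median of 0.15, beside 67.8% called and a median of 0.05 over all genes. Of the 14 receptors 9 were tested, and 6 of these fell in light in flu1-1 ex1 and 7 in flu1-5 ex1, with median changes of -1.13 and -1.01, where 28.6% and 29.3% of all genes tested were called lower. PYL5 (AT5G05440) fell by 3.38 in flu1-1 ex1 (SE 0.04, limma adjusted p = 4.14e-11) and by 3.19 in flu1-5 ex1 (SE 0.05, adjusted p = 2.27e-10). PYL8 (AT5G53160), a receptor known in roots, fell by 2.24 in both lines (SE 0.04 and 0.05, adjusted p = 7.05e-10 and 1.19e-09). PYL1 (AT5G46790) was the receptor that rose, by 0.85 (SE 0.08, adjusted p = 1.8e-05) and 0.69 (SE 0.08, adjusted p = 9.41e-05).

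Summed over 14 receptor genes, the level was 767 ± 19.4 TPM in the dark group and 255 ± 5.07 TPM in the light group in flu1-1 ex1, and 757 ± 13.96 and 259.9 ± 11.2 TPM in flu1-5 ex1 (SD, n = 3). Summed over the 9 clade A phosphatases it was 57.0 ± 0.873 TPM in the dark group and 139 ± 4.14 TPM in the light group in flu1-1 ex1, and 64.8 ± 2.36 and 162 ± 3.28 TPM in flu1-5 ex1. Summed over 3 SnRK2 kinases it was 178 ± 4.21 and 129.97 ± 5.00 TPM in flu1-1 ex1, and 171 ± 3.64 and 141 ± 8.95 TPM in flu1-5 ex1. The ratio of receptor to phosphatase transcripts was thus 13.5 ± 0.492 in dark and 1.83 ± 0.0882 in light in flu1-1 ex1, and 11.7 ± 0.261 and 1.60 ± 0.0377 in flu1-5 ex1, with no overlap between dark and light libraries. Transcript sums say nothing of protein amounts.

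**Figure D4:**
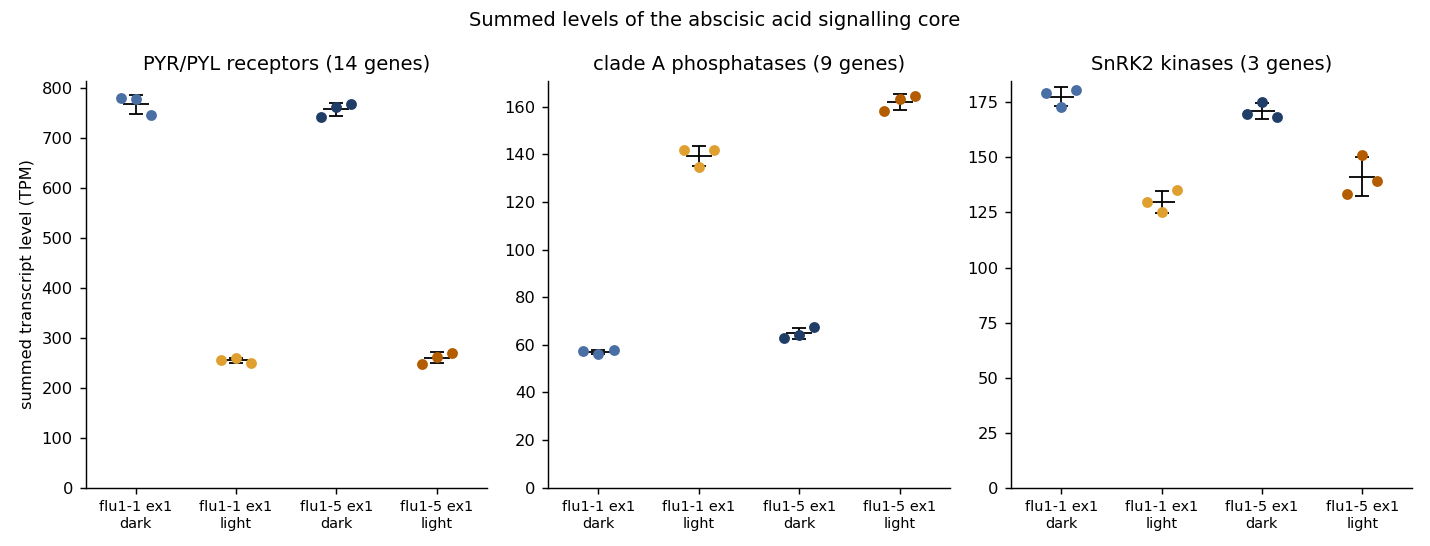
Summed TPM of the receptor, clade A phosphatase and SnRK2 kinase genes in every library, on linear axes that start at 0 and differ between panels; points are libraries and bars are the mean ± SD of 3 libraries. The receptor sum is lower in every light library (248 to 270 TPM) than in every dark library (741 to 779 TPM), and the phosphatase sum is higher in every light library.

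Upstream of the receptors, 2 of 5 tested synthesis genes rose in flu1-1 ex1 and 1 of 5 in flu1-5 ex1. Over all genes tested, 44% and 38.4% were called higher. ABA1 (AT5G67030), zeaxanthin epoxidase, rose by 1.15 (SE 0.03, limma adjusted p = 5.91e-09) and 1.26 (SE 0.05, adjusted p = 5.9e-08). ABA2 (AT1G52340), the short-chain dehydrogenase of the pathway, rose in flu1-1 ex1 by 0.32 (SE 0.07, adjusted p = 0.00376) and was at -0.12 in flu1-5 ex1 (adjusted p = 0.189), a change that passed with quantile normalization (-0.26, adjusted p = 0.0145) and by the p-value in the authors' deposited table (adjusted p = 0.00629). The other dioxygenase genes NCED2, NCED5, NCED6 and NCED9 had group means of at most 0.338 TPM. Among genes that conjugate the hormone or release it from its glucose ester, 3 of 4 tested fell in flu1-1 ex1 and 4 of 4 in flu1-5 ex1. The shares of all genes tested that were called lower were 28.6% and 29.3%. The glucosyltransferase gene UGT71B6 (AT3G21780) fell by 1.60 (SE 0.11, adjusted p = 2.11e-06) and by 1.06 (SE 0.10, adjusted p = 1.53e-05). UGT71C5 (AT1G07240), a further glucosyltransferase, fell by 0.95 (SE 0.04, adjusted p = 9.71e-08) in flu1-1 ex1 and by 0.38 (SE 0.04, adjusted p = 2.99e-05) in flu1-5 ex1. BGLU18 (AT1G52400), a glucosidase that frees the hormone, was at 0.03 in flu1-1 ex1 (adjusted p = 0.286, and 4.33e-05 by the p-value in the authors' deposited table) and fell by 0.83 in flu1-5 ex1 (SE 0.04, adjusted p = 1.64e-07).

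Of the 4 transporters, ABCG40 (AT1G15520), an importer of abscisic acid, rose by 1.71 in flu1-1 ex1 (SE 0.13, limma adjusted p = 3.26e-06) and by 3.41 in flu1-5 ex1 (SE 0.11, adjusted p = 1.46e-08), from levels listed at 0 to 0.186 TPM in dark. ABCG40 thus passed the level filter only through its light levels. DTX50 (AT5G52050), an exporter, fell by 0.97 (SE 0.09, adjusted p = 1.67e-05) and by 1.56 (SE 0.08, adjusted p = 3.24e-07). NRT1.2 (AT1G69850), a nitrate and abscisic acid transporter, fell by 0.94 (SE 0.04, adjusted p = 1.6e-07) and by 0.90 (SE 0.04, adjusted p = 2.07e-07). ABCG25 (AT1G71960), an exporter, was at 0.04 in flu1-1 ex1 and 0.26 in flu1-5 ex1 (adjusted p = 0.566 and 0.0143). By the p-value in the authors' deposited table the former passed (adjusted p = 0.00103), and the latter call was lost without light replicate 3 of flu1-5 ex1 (adjusted p = 0.0563) and with quantile normalization. Of the 3 kinases, SNRK2.2 (AT3G50500) fell by 0.55 (SE 0.03, adjusted p = 2.88e-07) and by 0.41 (SE 0.04, adjusted p = 3.9e-05). SNRK2.6 (AT4G33950), the guard cell kinase, rose by 0.38 in flu1-1 ex1 (SE 0.06, adjusted p = 0.000343) and was at 0.21 in flu1-5 ex1 (SE 0.07, adjusted p = 0.0220), where the call was lost without dark replicate 1 (0.0682) or light replicate 2 (0.0752) and with quantile normalization (0.322).

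Of the 5 tested transcription factors of the pathway, 3 were called higher and 1 lower in each line. Over all genes tested, 72.6% were called in flu1-1 ex1 and 67.8% in flu1-5 ex1. ABF2 (AT1G45249) rose by 1.66 (SE 0.05, limma adjusted p = 1.25e-08) and 1.42 (SE 0.11, adjusted p = 4.42e-06), ABF3 (AT4G34000) by 1.30 (SE 0.22, adjusted p = 0.00113) and 1.84 (SE 0.10, adjusted p = 3.16e-07). ABF4 (AT3G19290) fell by 0.31 (SE 0.06, adjusted p = 0.00193) and by 0.44 (SE 0.09, adjusted p = 0.00246). The call of the seed factor ABI5 (AT2G36270) in flu1-1 ex1 (0.35, adjusted p = 0.0476) was kept in 1 of 6 fits that left out a library, that without light replicate 1 (adjusted p over the 6 fits 0.0166 to 0.155), and it was lost with quantile normalization (0.313), without the level filter (0.0586), with a pseudocount of 0.1 TPM (0.0514) and by the p-value in the authors' deposited table (0.0613). ABI5 was at 1.35 in flu1-5 ex1 (SE 0.20, adjusted p = 0.000412). Of 23 tested targets that respond to the hormone, 14 rose and 4 fell in flu1-1 ex1, and 15 rose and 4 fell in flu1-5 ex1. Beside these stand 44% and 38.4% of all genes tested called higher, and 28.6% and 29.3% called lower. The 23 were not the same genes in both lines, since TSPO (AT2G47770) passed the level filter only in flu1-1 ex1 and EM6 (AT2G40170) only in flu1-5 ex1. Some targets passed the level filter only through a single condition. GBF3 had dark means of 0.766 and 0.405 TPM, KIN1 (AT5G15960) had 0.703 TPM in dark in flu1-1 ex1, and COR15A had light means of 0.529 and 0.840 TPM. In flu1-5 ex1, RD29B (AT5G52300) and EM6 had dark means of 0.802 and 0.948 TPM. The share of such genes in these counts is no support. RD29A (AT5G52310), a desiccation gene that also answers cold through other elements, rose by 3.42 (SE 0.06, adjusted p = 3.76e-10) and by 2.71 (SE 0.08, adjusted p = 1.11e-08). RD22 (AT5G25610), a dehydration gene, rose by 2.21 (SE 0.02, adjusted p = 4.1e-11) and by 2.02 (SE 0.04, adjusted p = 6.66e-10). GBF3 (AT2G46270), a bZIP factor gene, rose by 1.79 (SE 0.22, adjusted p = 9.58e-05) and by 2.67 (SE 0.16, adjusted p = 8.51e-07). RD26 (AT4G27410), a stress NAC factor gene, fell by 1.46 (SE 0.08, adjusted p = 2.62e-07) and by 1.78 (SE 0.08, adjusted p = 8.49e-08). COR15A (AT2G42540), a cold gene with the close copy COR15B between which the estimate may be split, was at -1.07 (adjusted p = 0.0267) and -0.42 (adjusted p = 0.0223). Its call was lost in flu1-1 ex1 without light replicate 1 (0.0805) or 2 (0.0812), and in flu1-5 ex1 without dark replicate 1 (0.0766), dark replicate 3 (0.0681) or light replicate 2 (0.0725); by the p-value in the authors' deposited table it passed in neither line (0.0669 and 0.282).

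**Figure D5:**
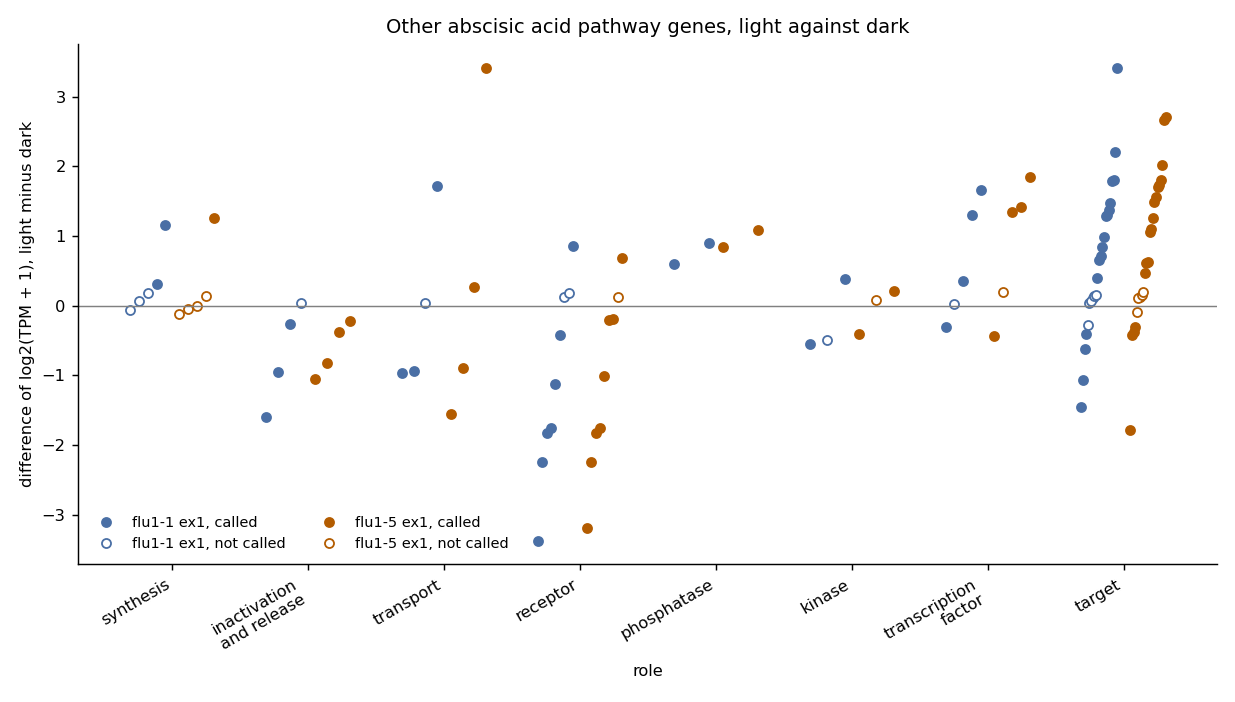
Light change of the other pathway genes tested, by role, as the difference of log2(TPM + 1), light minus dark; each point is a gene, ordered by value within its role and line, filled where the adjusted p is under 0.05. Receptors lie mostly below 0 and both phosphatases above 0, while targets spread on both sides.

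Between the lines, 11 of the 55 other pathway genes tested over 12 libraries were called in dark (4 higher and 7 lower in flu1-5 ex1). In light 19 were called (12 higher and 7 lower). These are 11 and 19 of 55 beside 20.4% and 39.1% of all genes tested. Without regard to direction, the dark share is thus that of the background and the light share is near it. By direction, 14.7% of all genes tested were called higher and 5.68% lower in dark, and 18.1% and 21% in light. The balance of higher and lower among the pathway genes was the reverse of this in both conditions, which was not tested. The dark count was 7 without dark replicate 2 of flu1-1 ex1 and 6 without dark replicate 3 of flu1-5 ex1. The light responses of 21 of the 55 were called different between lines, 12 with a higher and 9 with a lower value in flu1-5 ex1. Over all genes tested, 29.6% were called for this difference (11.3% higher and 18.3% lower). They included ABCG40 (1.70, SE 0.15, limma adjusted p = 3.09e-06) and PP2CA (0.49, SE 0.09, adjusted p = 0.00141), higher in flu1-5 ex1 as for NCED3 and HAI1, and RD29A (-0.71, SE 0.11, adjusted p = 0.000307) and RAB18 (AT5G66400; -0.74, SE 0.17, adjusted p = 0.00661), dehydration genes with a lower value there.

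Markers of other cell types moved with light as well. Their counts stand beside 44% of all genes tested called higher and 28.6% lower in flu1-1 ex1. In flu1-5 ex1 these shares were 38.4% and 29.3%. The guard cell markers MYB60, HT1, FAMA and KAT1 summed to 44.3 to 44.7 TPM in the dark group and 56.9 to 62.5 TPM in the light group in flu1-1 ex1, and to 49.45 to 52.4 and 65.1 to 67.8 TPM in flu1-5 ex1; 3 of 4 were called higher in light in each line and none at 0. The phloem markers SUC2 and APL summed to 122.5 to 127.5 TPM in the dark group and 78.2 to 81.9 TPM in the light group in flu1-1 ex1, and to 124.5 to 126 and 79.8 to 90.9 TPM in flu1-5 ex1, with 2 of 2 called lower in flu1-1 ex1 and 1 of 2 in flu1-5 ex1. The seed markers OLEO1, CRU1, EM1 and EM6 summed to 10.2 to 10.98 TPM in the dark group and 4.06 to 5.28 TPM in the light group in flu1-1 ex1, and to 6.51 to 9.005 and 6.58 to 9.66 TPM in flu1-5 ex1, with EM1 at 0 in every dark library of flu1-1 ex1; 1 of 1 tested was called lower in flu1-1 ex1 and 0 of 2 in flu1-5 ex1. Nearly the whole sum of the 4 root markers (848 to 861 TPM in dark and 958 to 996 TPM in light for flu1-1 ex1, 854 to 926 and 696 to 705 TPM for flu1-5 ex1) was PYK10, a root and endoplasmic reticulum body glucosidase. PYK10 was the only root marker tested and was called higher in light in flu1-1 ex1 (0.20, SE 0.02, limma adjusted p = 6.66e-05) and lower in flu1-5 ex1 (-0.35, SE 0.03, adjusted p = 1.51e-05). Their part in the changes of NCED3, the CYP707A genes and the phosphatases was not tested.

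For each tested member the gene most like it was found by Pearson's r of log2(TPM + 1) over all 12 libraries, among 14003 genes whose mean reached 5 TPM. The 12 points share 4 groups, so r mainly follows the group means and is given as a description. NCED3 was most like ATERDJ3A (r = 0.997), ABI1 most like CYP83B1 (0.999), HAB1 most like SOS1 (0.986) and HAI1 most like AT1G21550 (0.960). CYP707A2 was most like AT4G12000 (0.996), CYP707A3 most like AT2G25510 (0.985), ABI2 most like AT1G24580 (0.996) and CYP707A1, whose level varied little, most like AT4G00990 (0.882).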

How the data were processed

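The deposited tables, 1 for each line, hold TPM values per gene for 6 libraries, and the submitters' processing notes name kallisto 0.46.2, sleuth 0.30.0 and the build TAIR10, with no role or order. The fold ratio and p-value of the authors were deposited in the same tables and are used only as an alternative. Those p-values were adjusted here by the Benjamini-Hochberg method over all genes given a p-value in that line. The adjusted values are therefore not the authors' own. Each table lists 1 transcript per gene for 27655 genes, and the genes whose transcript differs between tables (971, AHG1 and RCA among them) were left out of comparisons across lines. The listed values of a library total 929954 to 935223 TPM. Other transcripts of a gene may therefore be missing from its level, from the orders of levels and from the summed levels. Groups follow the library descriptions, since the genotype label gives flu1-1 for every library. The labels give a single batch value, and nothing says that replicates were grown apart, so p-values measure only how these samples vary, which may be technical.

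Values were transformed as log2(TPM + 1), which understates the change of low genes, and fitted with limma 3.58.1 (R 4.3.3, statmod 1.5.0; trend and robust moderation, two-sided) over genes whose mean reached 1 TPM. Light and dark were compared within each line over 6 libraries, and lines and the difference of responses were fitted over 12 libraries. The procedure was tested on simulated data. The members and gene lists were chosen with earlier results of these data known. All members, PP2CA, HAB2 and AHG1 were named whatever their result; of the other pathway genes, the 2 largest called rises and falls of each role were named in each light comparison and in the difference of responses. The seed markers EM1 and EM6 are in the target list as well. Alternatives were quantile normalization, the deposited p-value, no level filter or a higher one (5 TPM), a pseudocount of 0.1 or 5, stricter calls (adjusted p under 0.01, or 2-fold or more), a replicate block, and the omission of single libraries. Upstream windows were read from the RefSeq genome TAIR10.1 at the start of the deposited transcript in its own annotation. No fold is given against a group with a library at 0, since a listed 0 may reflect a failed estimate.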

Additional observations from a re-analysis of the deposited data

Results flagged for a closer look

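The light response differed between the lines, by the interaction term of the limma fit over 12 libraries, for 3 members and 16 of the other pathway genes named in the text. Over all genes tested, 29.6% were called for this term (11.3% higher and 18.3% lower in flu1-5 ex1). Each value is the light change in flu1-5 ex1 minus that in flu1-1 ex1 on the log2(TPM + 1) scale. Among the members it was 0.86 for CYP707A3 (adjusted p = 0.000713), 1.03 for HAI1 (adjusted p = 0.00530) and 0.47 for NCED3 (adjusted p = 0.0239). Higher values in flu1-5 ex1 were also found for the transporter ABCG40 (1.70), the seed factor ABI5 (1.00), AFP3 (0.92), a gene for a protein that binds ABI5-type factors, the phosphatase PP2CA (0.49), and the glucosyltransferases UGT71C5 (0.58) and UGT71B6 (0.54). Lower values were found for the glucosidase BGLU18 (-0.86), the dehydration genes RAB18 (-0.74) and RD29A (-0.71), the exporter DTX50 (-0.59), the synthesis gene ABA2 (-0.44) and the dehydration gene RD22 (-0.19), whose call was lost with quantile normalization (adjusted p = 0.173). Calls for these held in all 12 fits that left out a library, except for NCED3, whose exceptions stand in the report. The calls of GBF3 (0.88, adjusted p = 0.0400), PYL5 (0.19, adjusted p = 0.0366), PYL9 (-0.31, adjusted p = 0.0246) and the NAC factor gene RD26 (-0.32, adjusted p = 0.0368) were kept in 4, 4, 7 and 3 of the 12 fits, with adjusted p up to 0.0932, 0.0909, 0.0604 and 0.0887.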

How the results depend on the processing

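No called change of a member reversed under any alternative run. With a mean of at least 5 TPM fewer members could be tested, and those called numbered 2 for light in flu1-1 ex1, 3 for light in flu1-5 ex1, 1 for the difference of responses and 2 between lines in light. A pseudocount of 0.1 left 1 member called for the difference. Asking for at least 2-fold left 1 member called for the difference, 1 between lines in dark and 1 in light. Of the other pathway genes, at least 2-fold left 20, 25, 1, 0 and 1 called for light in flu1-1 ex1, light in flu1-5 ex1, the difference, dark and light, and an adjusted p under 0.01 left 11 for the difference and 5 in dark. Leaving out each library gave 6 to 7 members called for light in flu1-1 ex1, 6 to 7 in flu1-5 ex1 and 2 to 3 for the difference, and the dark count of other pathway genes ran from 6 to 13. The cause of these moves was not tested. The replicate numbers gave no clear pairing of the libraries. Same-numbered libraries had deviations correlated at -0.049 to 0.143, over 0.1 in 1 of 18 pairs, dark and light replicate 3 of flu1-1 ex1. By a strict count, 0 libraries correlated best with their own number in every other group at once, though some did in a single group. With the replicate block, 7, 6, 3, 2 and 4 members and 42, 44, 21, 12 and 19 other pathway genes were called in the 5 comparisons, in the order above, and the call of ABI5 for light in flu1-1 ex1 was lost (adjusted p = 0.0619). Depth is unknown, so the precision of the low genes CYP707A2, HAI1, HAI2 and HAI3 in dark cannot be given beyond the spread of 3 libraries.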
